A study of Mus musculus with 2 samples.

Results

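The cathepsins described here are 10 protease genes, Ctsa, Ctsb, Ctsc, Ctsd, Ctse, Ctsh, Ctsl, Ctss, Ctsz and Ctsk. They were chosen by name, and all 10 were found among the 28000 features listed in each of the 2 single-cell RNA libraries of mouse prostate tumours. The first library came from hHGFtg:H11hMET/+:PBCre4 mice (DoubleTg), labelled prostatic adenocarcinoma, and the second from hHGFtg:H11hMET/+:Ctnnb1 L(Ex3)/+:PBCre4 mice (TripleTg), labelled prostatic carcinoma. Both genotypes therefore carried human HGF, expressed throughout the body, and human MET (hMETtg), which is silent until Cre removes a stop cassette. The Cre is driven by the probasin promoter and acts in prostate epithelium. In TripleTg the same Cre also removes exon 3 of Ctnnb1, which stabilises β-catenin. The mice had a mixed C57BL/6 and C3H SCID background, and SCID mice are known for few mature B and T cells. The age of the mice and the number of animals pooled for these libraries are not given in the sources used here. Each genotype was measured in 1 library, so no replicate error exists, and no p-value is given. Intervals are at the 95% level and reflect counting alone.

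Cathepsins are proteases that work mainly in the acidic interior of lysosomes and endosomes. Ctsb, Ctsc, Ctsh, Ctsk, Ctsl, Ctss and Ctsz encode cysteine proteases, Ctsd and Ctse aspartic proteases, and Ctsa a serine carboxypeptidase that also protects neuraminidase and β-galactosidase. Macrophages use them to digest engulfed material, antigen-presenting cells use Ctss to trim the invariant chain from MHC class II, and Ctsk is the collagen-degrading protease of osteoclasts. In tumours, secreted cathepsins of epithelial, stromal and myeloid cells are known to cleave matrix proteins.

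After limits of more than 200 and fewer than 7000 genes and under 15% mitochondrial UMIs (unique molecular identifiers, 1 per captured RNA molecule), 10598 of 12072 DoubleTg barcodes and all 9492 TripleTg barcodes remained, with 256880958 and 229655259 UMIs. Of these, 452364 and 458574 came from the 10 cathepsins. The libraries shared 29 barcodes among the kept cells. Clusters were named "-like" from marker genes, with all cathepsins left out of the clustering. Levels are UMIs per 1000000 UMIs of a class (CPM). They are not scaled by gene length, because the chemistry tags 1 end of each RNA, and capture can still differ between genes. The luminal-like class held 5000 DoubleTg and 4444 TripleTg cells, the fibroblast-like class 699 and 634, the macrophage-like class 275 and 434, and the dendritic-like class 96 and 47. Axin2, a target of β-catenin, stood at 1.64 CPM in DoubleTg and 83.4 CPM in TripleTg luminal-like cells, and hMETtg at 493 and 25.1 CPM. All 10 macrophage markers and all 11 dendritic markers were detected in their classes in both libraries, but most were detected in other classes too. The macrophage markers summed to 12272 CPM in DoubleTg and 27465 CPM in TripleTg macrophage-like cells, against 545 and 567 CPM in dendritic-like cells. The dendritic markers summed to 4577 and 2602 CPM in dendritic-like cells, against 383 and 215 CPM in macrophage-like cells. The same markers named the classes. Ccr7, the receptor of migrating dendritic cells, was at 3376 and 1747 CPM in the dendritic-like class.

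Cells of every class also held some RNA of epithelial origin, and this differed between the libraries. The summed level of the 5 epithelial markers (Epcam, Cdh1, Krt8, Krt18, Krt19), all detected in every class named here, was 15880 CPM in DoubleTg and 16717 CPM in TripleTg luminal-like cells. It was 666 and 1756 CPM in macrophage-like, 1290 and 2272 CPM in dendritic-like, and 1076 and 4234 CPM in fibroblast-like cells. The 8 seminal vesicle markers summed to 167 and 2819 CPM in macrophage-like and to 132 and 2494 CPM in dendritic-like cells, and 4 of them (Svs1, Svs3a, Svs3b, Svs6) were at 0 in both classes of DoubleTg. The part of this RNA in the ratios below was not tested unless a value is given.

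On the GRCm38 build (GENCODE M21), Ctsa lies at chr2:164832873-164841032 and Ctsz at chr2:174427493-174439039. Ctsc is at chr7:88278085-88310888 and Ctsd at chr7:142375911-142388038. Ctse, at chr1:131638306-131675505, and Ctsb, at chr14:63122462-63145923, stand on other chromosomes, as do Ctsh, at chr9:90054152-90076089, and Ctsl, at chr13:64359337-64370890. Ctsk (chr3:95499256-95509362) and Ctss (chr3:95526786-95556403) are neighbours, separated by 17423 bp. These neighbours had very different levels: Ctss led in macrophage-like cells and Ctsk in fibroblast-like cells.

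**Figure D1:**
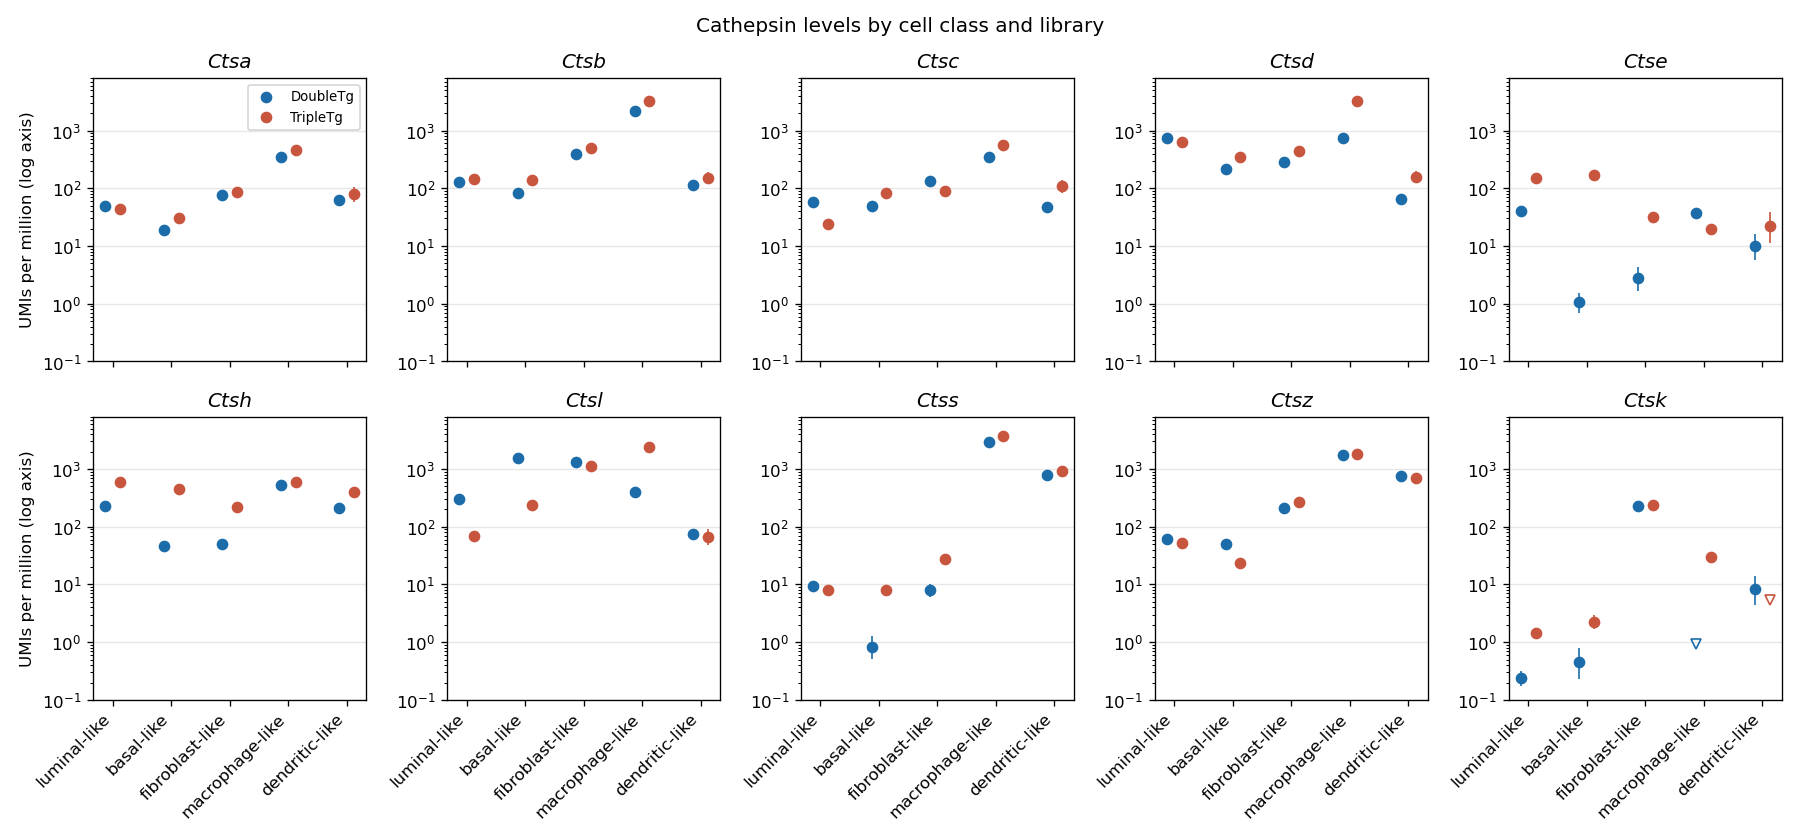
Level of each cathepsin in CPM (log axis) in 5 cell classes of the DoubleTg (blue) and TripleTg (red) libraries. Bars are 95% Poisson intervals, mostly smaller than the points, and open triangles mark sums under 3 UMIs, drawn at the level of 3 UMIs; Ctss, Ctsb and Ctsz peak in macrophage-like cells, Ctsk in fibroblast-like cells, and Ctsl takes opposite directions between the libraries in luminal-like and macrophage-like cells.

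The first comparison set macrophage-like against luminal-like cells within each library. Ctss, Ctsz, Ctsb, Ctsa and Ctsc were at least 2-fold higher in macrophage-like cells of both libraries, and Ctss had the largest ratio in each. In DoubleTg, 6 of the 9 members with at least 5 CPM in either class were at least 2-fold higher and 0 were lower, beside 19.7% and 32.6% of all 9490 genes tested. The median log2 ratio was 2.58 over the members and -0.35 over all genes. In TripleTg, 8 of 10 were higher and 1 was lower, beside 20.6% and 21.3% of 9584 genes, with medians of 4.45 and -0.07.

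Ctss, the protease of antigen presentation, was at 2973 CPM in DoubleTg and 3656 CPM in TripleTg macrophage-like cells and at 9.26 and 8.08 CPM in luminal-like cells. Its log2 ratios were 8.33 (8.25 to 8.40) and 8.82 (8.73 to 8.91). Ctsz, a carboxypeptidase, stood at 1729 and 1816 CPM in macrophage-like cells and at 60.5 and 51.7 CPM in luminal-like cells. Ctsb, which cuts both within and at the ends of proteins, stood at 2157 and 3299 CPM against 127 and 147 CPM. These 3 members were the furthest apart between the classes in DoubleTg.

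Ctsa was 2.78 log2 units higher in DoubleTg (343 against 49.9 CPM) and 3.38 higher in TripleTg (460 against 44.3 CPM). Ctsc, which activates serine proteases of granules, was 2.58 higher in DoubleTg (348 against 58.4 CPM) and 4.53 higher in TripleTg (560 against 24.2 CPM). Ctsh, an aminopeptidase, was 1.18 higher in DoubleTg macrophage-like cells (523 against 230 CPM). In TripleTg the Ctsh levels of the 2 classes, 590 and 595 CPM, differed by -0.01 (-0.07 to 0.04).

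Ctsd and Ctsl, the main aspartic and a broadly acting cysteine protease of lysosomes, had large ratios in TripleTg and small ones in DoubleTg. In DoubleTg, Ctsd was at 749 CPM in macrophage-like and 729 CPM in luminal-like cells, a log2 ratio of 0.04 (-0.02 to 0.10), which was -0.44 as a mean over cells. In TripleTg it was at 3254 and 625 CPM, a ratio of 2.38 (2.36 to 2.40). The Ctsl ratio was 0.42 in DoubleTg (401 against 300.5 CPM; -0.30 as a mean over cells) and 5.15 in TripleTg (2446 against 68.8 CPM). The difference between the 2 libraries in these ratios was not tested, since each rests on 1 library.

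Ctse, an aspartic protease of endosomes known from gastric epithelium and immune cells, went the other way in TripleTg. It was at 19.99 CPM in macrophage-like against 152 CPM in luminal-like cells, a log2 ratio of -2.93 (-3.22 to -2.65). In DoubleTg both classes held similar levels, 36.9 and 40.7 CPM, and the ratio was -0.14 (-0.42 to 0.12). A further class carried it: in the 438 T and NK-like cells of DoubleTg, Ctse was at 57.5 CPM, with a UMI in 35.4% of cells (30.9 to 40.1%) at a median of 6513 UMIs per cell. In the 699 fibroblast-like cells of the same library it was at 2.75 CPM, with a UMI in 1.72% of cells at a median of 9006 UMIs. After thinning to 5000 UMIs the shares were 27.0% in T and NK-like, 12.5% in macrophage-like, 13.1% in luminal-like and 0.361% in fibroblast-like cells. The epithelial markers summed to 4458 CPM in the T and NK-like class.

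Among genes that work with cathepsins, the lysosomal, activator and transcription factor lists had most of their tested genes higher in macrophage-like cells of both libraries, and the other lists did not in DoubleTg. Of the lysosomal enzymes and membrane proteins, 11 of 16 tested in DoubleTg and 16 of 17 in TripleTg were at least 2-fold higher and 1 and 0 lower. Lipa, the lysosomal acid lipase, was at 239 CPM against 3.85 CPM in DoubleTg and at 236 CPM against 1.81 CPM in TripleTg. Of the activators and partners, 4 of 6 were higher and 1 lower in DoubleTg and 6 of 6 were higher in TripleTg. Lgmn, legumain, which processes several cathepsins, was at 1181 against 19.4 CPM and 879 against 25.9 CPM. Cd74, the invariant chain that Ctss trims, was at 33849 against 64.7 CPM and 11001 against 46.4 CPM.

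All 3 transcription factors of lysosome genes were higher in both libraries, with Mitf at 24.5 against 2.68 CPM in DoubleTg and 32.6 against 0.472 CPM in TripleTg. Of the 7 sorting genes, 3 and 4 were higher and 2 and 2 lower. M6pr, a mannose 6-phosphate receptor that carries cathepsins to lysosomes, was at 295 against 67.0 CPM in DoubleTg. Sort1, another sorting receptor, was at 4.34 against 47.5 CPM there. The inhibitors split: 4 of 8 tested were higher and 4 lower in DoubleTg, and 3 of 6 higher and 2 lower in TripleTg. Cst3, cystatin C, was at 5664 against 1148 CPM and 3630 against 374 CPM. Of the 4 other cathepsins 2 were tested in each library and 0 and 1 were higher. None of the 8 targets of Ctsc reached 5 CPM in DoubleTg, and 1 did in TripleTg, where it was higher.

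The dendritic-like class was then set against the macrophage-like class, since both present antigen. All members but Ctsk were at least 2-fold lower in DoubleTg dendritic-like cells: 9 of 10 were lower and 1 higher, beside 19.1% and 10.6% of 8377 genes. In TripleTg 8 of 10 were lower and 0 higher, beside 13.7% and 13.8% of 9399 genes. Median log2 ratios over the members were -2.18 and -2.42, against -0.16 and -0.06 over all genes.

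The smallest ratios in DoubleTg were those of Ctsz and Ctsh, and the largest those of Ctsb and Ctsd. Ctss was at 773 and 910 CPM in DoubleTg and TripleTg dendritic-like cells, log2 ratios of -1.94 and -2.01. Ctsz was at 758 and 709 CPM, ratios of -1.19 and -1.36. Ctsh was at 215 and 407 CPM, ratios of -1.28 and -0.54. Ctsb was at 114 and 151 CPM, ratios of -4.25 (-4.46 to -4.04) and -4.45 (-4.78 to -4.14). Ctsd was at 65.1 and 159 CPM, ratios of -3.53 and -4.36. Ctsl was at 75.0 and 67.5 CPM, ratios of -2.42 and -5.18, and Ctse had few UMIs, 17 and 12, with ratios of -1.89 and 0.13 (-0.87 to 0.995).

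Individual cells held much of the UMIs of some members. In DoubleTg dendritic-like cells 1 cell held 58 of the 128 Ctsl UMIs, and without it the level was 41.7 CPM. In TripleTg 1 cell held 15 of the 37, and without it the level was 42.0 CPM. In DoubleTg another cell held 13 of the 14 Ctsk UMIs, so the higher Ctsk of that class, 8.21 against 0.619 CPM, was 0.597 CPM without it. Of the lysosomal enzymes and membrane proteins, 12 of 16 tested in DoubleTg and 12 of 17 in TripleTg were lower and 0 were higher. Of the activators and partners 4 and 5 of 6 were lower and 0 and 1 higher, with Cd74 at 23142 CPM in TripleTg dendritic-like against 11001 CPM in macrophage-like cells. Cst3, from the inhibitor list, was at 13122 against 3630 CPM there.

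Fibroblast-like cells were compared with luminal-like cells in the same way. In DoubleTg 5 of 10 members were at least 2-fold higher and 3 lower, beside 27.2% and 19.3% of 10169 genes. In TripleTg 6 were higher and 2 lower, beside 25.4% and 11% of 10179 genes. The medians over the members were 0.91 and 1.76, against 0.10 and 0.08 over all genes.

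Ctsk was highest in these cells among the named classes. It stood at 230 CPM in DoubleTg and 237 CPM in TripleTg fibroblast-like cells, with a UMI in 68.8% and 53.3% of cells, and at 0.238 and 1.42 CPM in luminal-like cells. Log2 ratios were 9.92 (9.50 to 10.37) and 7.38 (7.16 to 7.61). Other stromal classes held it too. Smooth muscle and pericyte-like cells were at 91.2 and 156 CPM, with a UMI in 40.9% and 53.8% of cells, and glia-like cells at 120 CPM (25 UMIs in 39 cells) and 90.2 CPM (10 UMIs in 25 cells). Within TripleTg the 3 fibroblast-like clusters differed, from 95.4 CPM in the Apod and Lum-led cluster through 200 CPM in the Col6a1-led to 411 CPM in the Col3a1-led cluster. DoubleTg had 1 such cluster. At a finer clustering (Leiden resolution 2) the TripleTg groups were at 106, 161 and 420 CPM, and 3 DoubleTg groups, led by Wif1, by Lum and by Tagln, at 214, 239 and 274 CPM.

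Ctsl was high in fibroblast-like cells of both libraries, at 1318 and 1144 CPM, with log2 ratios to luminal-like cells of 2.13 and 4.06. Ctsb (389 and 490 CPM), Ctsz (213 and 272 CPM) and Ctsc (133 and 88.0 CPM) were also higher than in luminal-like cells in both libraries. Ctse (2.75 and 32.4 CPM) and Ctsh (50.4 and 222 CPM) were lower in both. Ctsd was lower by 1.34 in DoubleTg (288 CPM), and its TripleTg ratio was -0.48 (450 CPM). Serping1, an inhibitor of serine proteases from the inhibitor list, was at 1943 and 1338 CPM against 4.62 and 3.55 CPM.

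Luminal-like cells were not uniform. The class was made up of 10 DoubleTg and 7 TripleTg clusters, and each is called here by its leading genes. In DoubleTg the highest cluster was at least 2-fold above the lowest for 9 of the 9 members that reached 5 CPM, beside 83.3% of 10043 genes, and in TripleTg for 7 of 9, beside 41.7% of 9431 genes. Such a spread was thus common among all genes. The median log2 span was 2.33 over the members and 1.53 over all genes in DoubleTg, and 1.24 and 0.88 in TripleTg. The Sbp-led DoubleTg cluster, in which Sbp, a secretory protein of the ventral prostate, was at 329428 CPM, held the lowest level of 7 of the 9 members. Without mitochondrial and secretory genes in the denominator the DoubleTg log2 spans were smaller for 8 of the 9 members: Ctsa (1.27 in place of 2.08), Ctsb (1.32 in place of 2.14), Ctsc (1.95 in place of 2.75), Ctsd (1.90 in place of 2.72) and Ctsh (2.09 in place of 2.90) moved most, and the median over the members was 1.90.

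Ctse varied most in DoubleTg, by 144-fold, while in TripleTg Ctsl did, by 6.33-fold against 2.82-fold for Ctse. In DoubleTg Ctse was at 122 CPM (117 to 127) in the Prr9-led and 116 CPM (112 to 119) in the Psca and Msln-led DoubleTg cluster, with a UMI in 68.1% and 68.7% of cells. It was at 31.4 CPM in the interferon gene-led, 31.1 CPM in the Tgm4 and Pbsn-led, 25.4 CPM in the cycling, 10.4 CPM in the Msmb-led and 6.52 CPM in the Reg3b and Ppp1r1b-led cluster. In the Gsdmc2-led, Spink5-led and Sbp-led clusters it was at 1.01, 0.874 and 0.846 CPM, with overlapping intervals. In TripleTg it was detected in all 7 clusters, from 82.6 CPM in the 9530053A07Rik and Tgm4-led to 233 CPM (227 to 239) in the Gkn3-led cluster.

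Ctsh ran from 52.7 to 394 CPM over the DoubleTg clusters, highest in the Psca and Msln-led cluster, and from 374 to 832 CPM over the TripleTg clusters, highest in the Gkn3-led and Rnase1-led, at 832 and 830 CPM with overlapping intervals. Ctsd was highest in the Prr9-led DoubleTg cluster, at 1152 CPM, and in the Gkn3-led TripleTg cluster, at 809 CPM. Ctsl kept its DoubleTg clusters between 228 and 483 CPM, the highest being the Spink5-led, and its TripleTg clusters between 28.9 CPM in the cycling and 183 CPM in the interferon gene-led cluster. The ranges of Ctsl in the 2 libraries therefore did not overlap, while those of Ctse, Ctsh and Ctsd did. The share of all genes with ranges apart in this way was not counted, so this is not shown to be particular to Ctsl. Ctsc was at 15.6 to 105 CPM in DoubleTg and 12.5 to 32.1 CPM in TripleTg.

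**Figure D2:**
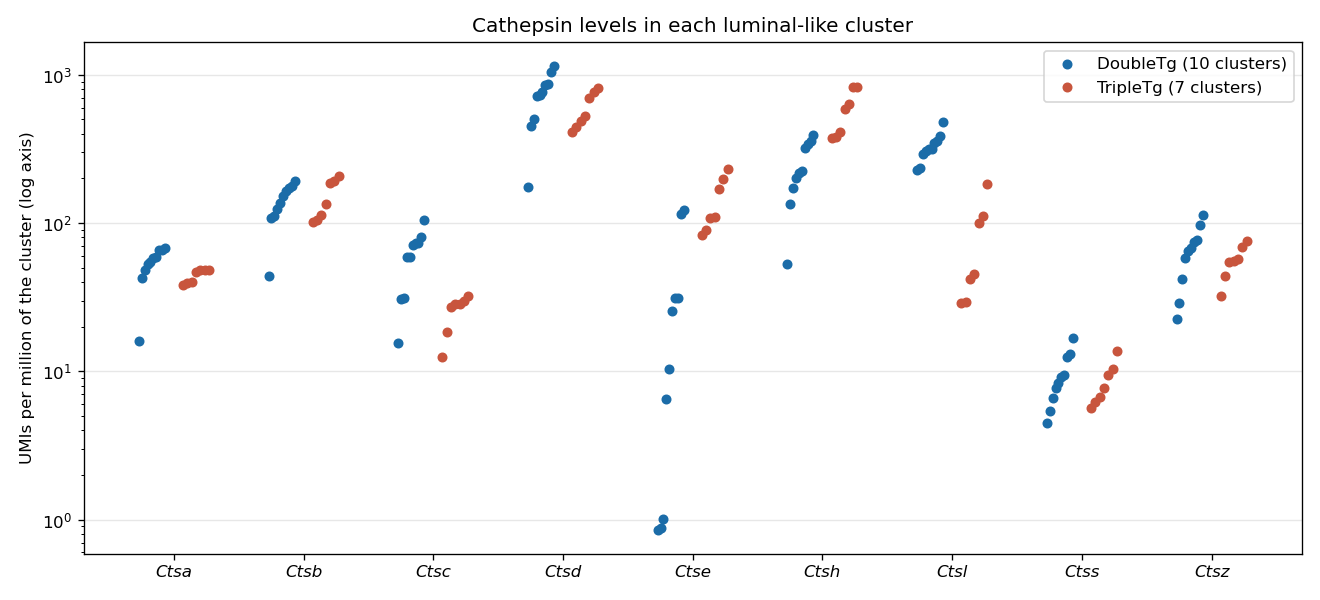
Level of 9 cathepsins in each luminal-like cluster, in CPM of the cluster (log axis), with 1 point per cluster, blue for the 10 DoubleTg and red for the 7 TripleTg clusters, in rising order. All TripleTg points of Ctsl lie below all DoubleTg points, and Ctse spans more than 100-fold in DoubleTg. The share of all genes with points apart between the libraries was not counted.

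The libraries were next compared within the luminal-like class. Ctse and Ctsh were higher and Ctsl and Ctsc lower in TripleTg, so 2 of 9 members were at least 2-fold higher and 2 lower, beside 11.6% and 12.3% of 9050 genes. The members' counts are to be read against these shares, and the medians were -0.20 over the members and 0.00 over all genes. Ctse rose from 40.7 to 152 CPM, a log2 ratio of 1.90 (1.86 to 1.94), and the share of cells with a UMI from 29.9% (28.6 to 31.2%) to 80.2% (79.0 to 81.4%) at medians of 35576 and 25650 UMIs per cell. Thinned to 5000 UMIs, these shares were 13.1% and 45.5%. Ctsh was at 230 and 595 CPM, a ratio of 1.37 (1.35 to 1.39). Ctsl was at 300.5 and 68.8 CPM, a ratio of -2.13 (-2.16 to -2.10), and Ctsc at 58.4 and 24.2 CPM, a ratio of -1.27 (-1.33 to -1.21).

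The other 5 members tested, Ctsa, Ctsb, Ctsd, Ctss and Ctsz, lay between -0.23 and 0.21. The cells behind the 2 luminal-like classes came from different clusters, and with 1 library each the genotype and the library cannot be told apart. In basal-like cells, a comparison added after the data had been seen, Ctsl was at 1545 CPM in DoubleTg and 238 CPM in TripleTg, and Ctse at 1.06 and 173 CPM. There 3 of 9 members were at least 2-fold higher and 2 lower, beside 14.6% and 11.4% of 9057 genes. The basal markers summed to 14817 CPM in the DoubleTg and 4938 CPM in the TripleTg class, in which a cluster led by Reg3b and Krt15 joined those led by Ifi202b and Ivl and by Krt75.

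Of 7 inhibitors tested in luminal-like cells, 1 was higher and 4 were lower in TripleTg. Slpi, an inhibitor of leukocyte serine proteases, was at 1.52 CPM in DoubleTg and 354 CPM in TripleTg, while Cst3, an inhibitor of cysteine cathepsins, was at 1148 and 374 CPM. Of the activators and partners 0 of 6 were higher and 2 lower, Glb1 (64.8 and 8.88 CPM) and Psap (347 and 129 CPM), the latter the source of the saposins. Of 14 lysosomal enzymes and membrane proteins 0 were higher and 4 lower, of 6 sorting genes and of 1 transcription factor 0 moved, and of 2 other cathepsins Ctsf was lower.

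**Figure D3:**
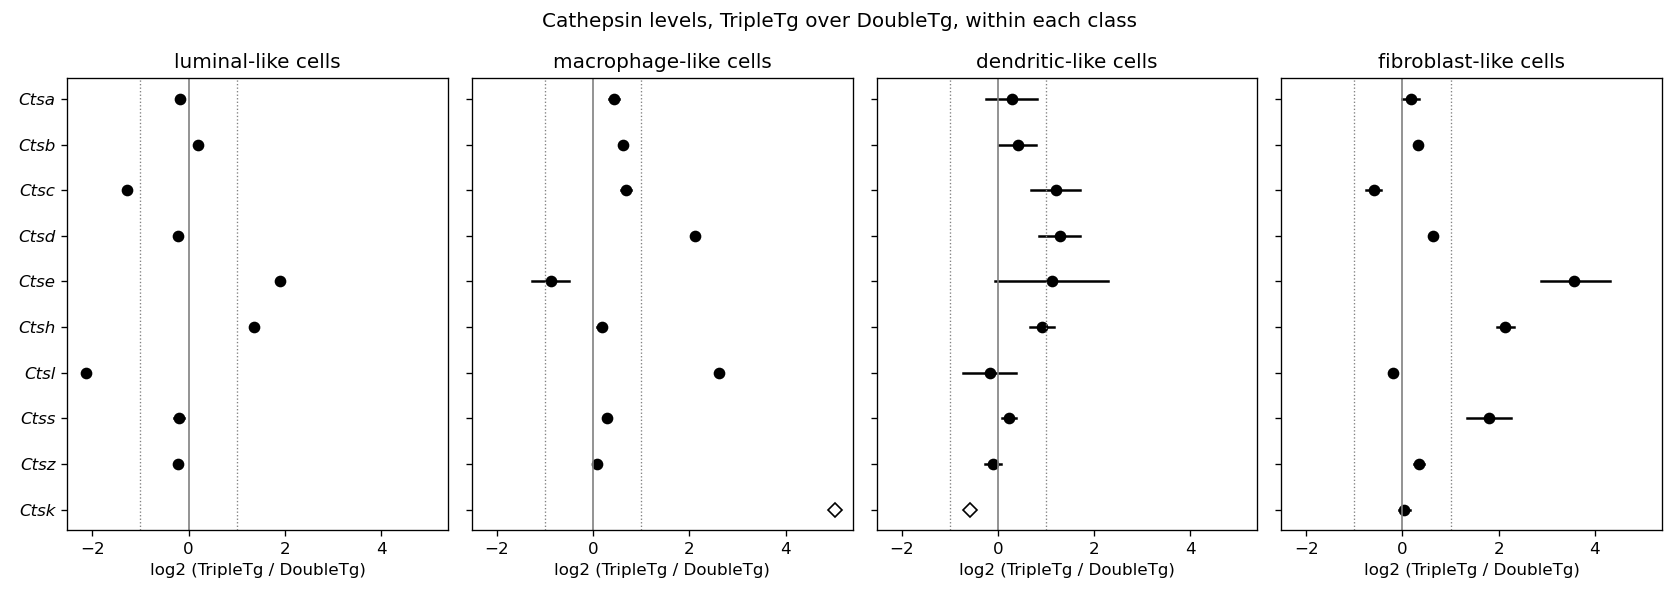
Log2 ratio of TripleTg over DoubleTg for each cathepsin within 4 cell classes, with 95% counting intervals as bars, often smaller than the points. Dotted lines mark 2-fold, open diamonds mark ratios with a sum under 3 UMIs set to 3, and Ctsk is not drawn in luminal-like cells, where it stayed under 5 CPM; Ctsl is lower in luminal-like and higher in macrophage-like cells.

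In macrophage-like cells Ctsl and Ctsd, which many cells held, differed most between the libraries beside the rare Ctsk. Ctsl, Ctsd and Ctsk, 3 of 10 members, were at least 2-fold higher in TripleTg and 0 were lower, beside 14.8% and 5.23% of 8783 genes. The median was 0.52 over the members and 0.24 over all genes. Ctsl was at 401 CPM in DoubleTg and 2446 CPM in TripleTg, a log2 ratio of 2.61 (2.52 to 2.69), and Ctsd at 749 and 3254 CPM, a ratio of 2.12 (2.06 to 2.18). The other members tested lay between -0.88 for Ctse and 0.68 for Ctsc, and Ctss (0.30) and Ctsz (0.07) were close to the median of all genes.

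A few cells held much of both genes. In DoubleTg 1 macrophage-like cell held 517 of the 1296 Ctsl UMIs and 476 of the 2419 Ctsd UMIs. Without the highest cell of each library Ctsl was at 247 and 2288 CPM, a ratio of 3.21 (3.10 to 3.32), and Ctsd at 617 and 3183 CPM, a ratio of 2.37 (2.30 to 2.44). With every cell thinned to 5000 UMIs, the median cell held 1 Ctsd UMI in DoubleTg and 5 in TripleTg, and the 90th percentile was 8 and 37 UMIs. For Ctsl the medians were likewise 1 and 5, and the 90th percentiles 3 and 24. For Ctss the medians, 13 and 15 UMIs, were close.

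**Figure D4:**
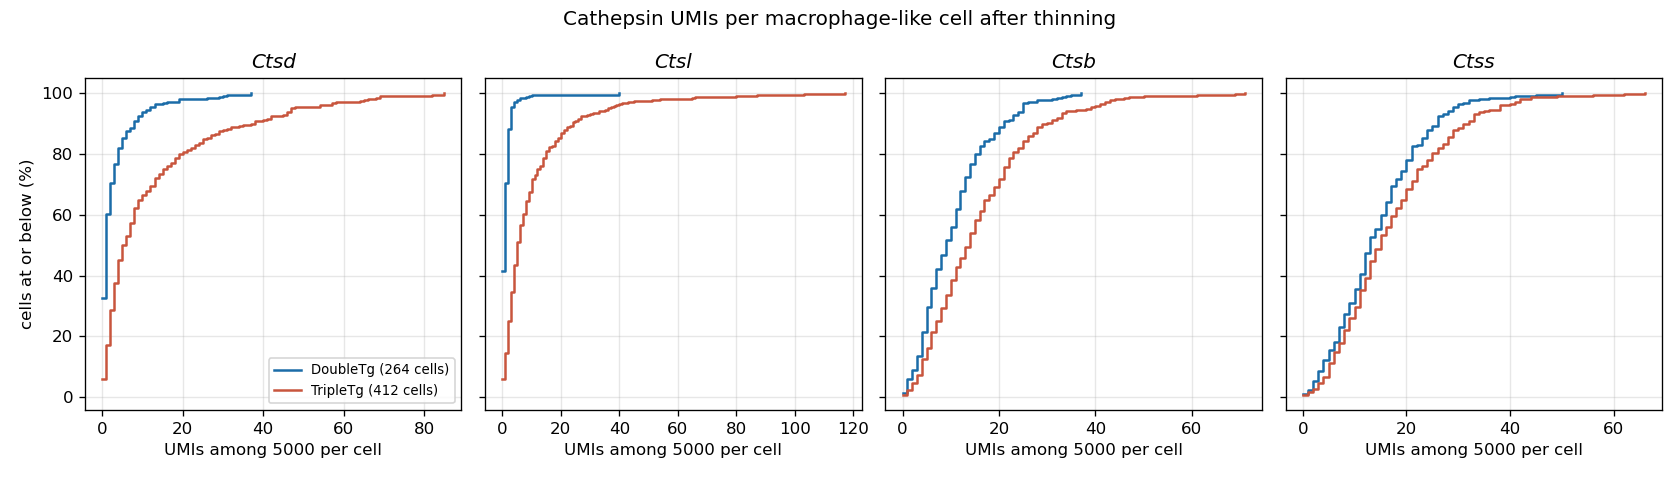
Share of macrophage-like cells (%) at or below a number of UMIs of Ctsd, Ctsl, Ctsb and Ctss, after each cell was thinned to 5000 UMIs, for 264 DoubleTg (blue) and 412 TripleTg (red) cells. The Ctsd and Ctsl curves stand apart, with medians of 1 and 5 UMIs, and the Ctss curves lie close, with medians of 13 and 15.

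At Leiden resolution 2 all TripleTg cells were clustered anew, and the macrophage-like ones formed a group of 229 cells led by Mmp12 and Spp1 and a group of 209 cells led by Ccl8, Cxcl13 and Pf4. Of these, 228 and 206 were among the 434 cells of the class. The DoubleTg class stayed 1 cluster. Ctsd was at 4463 CPM in the Mmp12-led and 799 CPM in the Ccl8-led group, close to the 749 CPM of DoubleTg. The Ccl8-led group differed from the DoubleTg class by 0.09 (-0.00 to 0.19) in Ctsd, but by 1.95 (1.85 to 2.04) in Ctsl, which it held at 1548 CPM against 2884 CPM in the Mmp12-led group. Ctss was at 4526 and 1875 CPM, Ctsb at 3853 and 2145 CPM, and Ctsk at 41.7 and 7.37 CPM in the Mmp12-led and Ccl8-led groups. These group comparisons were added after the data had been seen.

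Ctsk was rare in macrophage-like cells. In DoubleTg 1 cell held the only 2 UMIs, and with that sum set to 3 the log2 ratio of TripleTg over DoubleTg was 5.04. The 2 UMIs as counted gave an interval of 3.74 to 8.68. In TripleTg 39 cells held 160 UMIs, 74 of them in 1 cell, and without that cell the level was 16.5 CPM. Beyond the named classes, 1 cell of a mixed TripleTg cluster led by neutrophil genes held 264 of its 303 Ctsk UMIs, together with 270 UMIs of Acp5 and 20 of Mmp9, genes known from osteoclasts, and 0 of Col1a1.

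Among partners in macrophage-like cells, Cd74 was lower in TripleTg (33849 and 11001 CPM), the only 1 of 6 that was at least 2-fold apart. Of 17 lysosomal enzymes and membrane proteins 2 were higher, Atp6v0d2 (17.3 and 85.3 CPM), a subunit of the proton pump, and Asah1 (79.0 and 169 CPM). Of 7 inhibitors 3 were higher and 1 lower, with Serpinb6a at 50.2 and 212 CPM. None of the 3 transcription factors or the 2 other cathepsins was at least 2-fold apart, and 1 of 6 sorting genes, Igf2r (5.89 and 12.4 CPM), and the 1 target of Ctsc tested, Gzma (0.619 and 9.14 CPM), were higher. Both stood under 20 CPM and are named after their values were seen.

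The promoters of Ctsd and Ctsl, 2 of the 3 members at least 2-fold apart between the libraries in macrophage-like cells, and of Ctss, the member highest over luminal-like cells, are shown because the CACGTG core bound by the TFE and MITF factors and the AGGAAGT core bound by PU.1 and other ETS factors are well-known elements of lysosomal and myeloid genes. RefSeq (GRCm38.p6) gave 8 promoters for 7 of the 10 members, each 250 bases before to 50 after a start site, read 5′ to 3′ on the gene's strand, with the match in capitals.
Ctsd, chr7:142387778-142388077, minus strand: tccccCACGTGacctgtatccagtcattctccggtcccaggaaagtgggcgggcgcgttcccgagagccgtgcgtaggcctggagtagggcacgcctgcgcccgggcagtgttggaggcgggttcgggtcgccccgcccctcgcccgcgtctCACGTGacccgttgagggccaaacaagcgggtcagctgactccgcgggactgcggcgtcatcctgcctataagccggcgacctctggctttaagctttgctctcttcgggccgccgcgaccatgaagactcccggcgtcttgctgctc
Ctsl, chr13:64370471-64370770, minus strand: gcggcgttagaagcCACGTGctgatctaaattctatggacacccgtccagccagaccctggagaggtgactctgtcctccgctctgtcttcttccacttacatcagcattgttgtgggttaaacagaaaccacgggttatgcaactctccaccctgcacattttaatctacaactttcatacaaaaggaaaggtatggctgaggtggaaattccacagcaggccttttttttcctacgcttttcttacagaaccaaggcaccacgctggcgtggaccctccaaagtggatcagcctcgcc
Ctss, chr3:95526536-95526835, plus strand, with AGGAAGT on the other strand: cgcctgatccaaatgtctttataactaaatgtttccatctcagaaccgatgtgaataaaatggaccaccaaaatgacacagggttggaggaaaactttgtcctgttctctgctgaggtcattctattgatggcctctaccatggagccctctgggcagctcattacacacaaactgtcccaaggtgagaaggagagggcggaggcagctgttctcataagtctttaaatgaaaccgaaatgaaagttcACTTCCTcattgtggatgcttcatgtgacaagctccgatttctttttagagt

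CACGTG, which reads the same on both strands, began 245 and 98 bases before the start site of Ctsd and 236 bases before that of Ctsl. These RefSeq start sites lie inside the GENCODE genes given above, 211 bases after the first base of Ctsd and 370 bases after that of Ctsl, so the Ctsl stretch is wholly within the GENCODE gene. That of Ctss is the first base of its GENCODE gene. It was in 3 of the 8 member promoters (Ctsa, Ctsd, Ctsl) and in 7.15% of all 32851 promoters of that length. AGGAAGT on either strand was in 2 of 8 (Ctsc, Ctss) and in 9.35% of all. CTTTGAT, a core of TCF/LEF sites, was in 0 of 8 and in 3.73% of all. Matches describe letters only.

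In dendritic-like cells 3 of 10 members were at least 2-fold higher in TripleTg and 0 lower, beside 22.0% and 4.69% of 8878 genes, with medians of 0.35 over the members and 0.29 over all genes. They were Ctsd (65.1 and 159 CPM), Ctsc (47.5 and 109 CPM) and Ctse, whose 17 and 12 UMIs gave a ratio of 1.13 (-0.06 to 2.29). In TripleTg 1 of the 47 cells held 6 of the 12 Ctse UMIs, and without the highest cell of each library the Ctse ratio was 0.45 (-1.22 to 1.92). In DoubleTg 1 cell held 37 of the 111 Ctsd UMIs, and without the highest cell of each library Ctsd was at 45.03 and 146 CPM, a ratio of 1.69 (1.22 to 2.17) in place of 1.29. Ctsl (-0.15, -0.72 to 0.38) and Ctsz (-0.10, -0.26 to 0.07) had intervals that included 0.

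In fibroblast-like cells 3 of 10 members were higher in TripleTg and 0 lower, beside 11% and 5.72% of 10075 genes, with medians of 0.34 and 0.05. They were Ctse (2.75 and 32.4 CPM, ratio 3.56), Ctsh (50.4 and 222 CPM, ratio 2.14) and Ctss (7.98 and 27.7 CPM, ratio 1.79). Summed marker levels of other classes moved with them. Those of the 5 epithelial markers went from 1076 to 4234 CPM. Those of the 8 seminal vesicle markers, of which Svs1, Svs3a and Svs6 were at 0 in DoubleTg, went from 194 to 9241 CPM, and the TripleTg seminal vesicle-like cells held Ctse at 103 CPM and Ctsh at 180 CPM. Those of the 10 macrophage markers, of which Adgre1 was at 0 in DoubleTg, went from 85.2 to 238 CPM. Of the 147 TripleTg Ctss UMIs 1 cell held 30, and without the highest cell of each library the Ctss ratio was 1.65 (1.16 to 2.15). Without the highest 8% of doublet scores in each library the ratios were 2.32 for Ctse, 1.56 for Ctsh and 1.31 for Ctss, and TripleTg fibroblast-like over luminal-like Ctse was -3.60 in place of -2.23. The part of the markers in the 3 ratios was not tested beyond these values. In the Apod and Lum-led cluster, which was shallow at 3597 UMIs per median cell, Ctse was at 62.5 CPM, and in the Col6a1-led and Col3a1-led clusters at 13.6 and 13.9 CPM. At Leiden resolution 2 the Apod and Lum-led and the Crispld2 and Col6a1-led groups were level in Ctse, at 44.9 and 45.4 CPM, and the Col3a1-led group was at 12.7 CPM. Ctsk was at 230 and 237 CPM, a ratio of 0.04 (-0.06 to 0.15), and the Ctsl ratio was -0.20. These depend on which cells count as fibroblast-like: with the cathepsins kept among the genes used for clustering they were 0.84 and 0.08, that of Ctse was 2.16, that of Ctss 2.55, and that of Ctsd 1.02 in place of 0.64, past 2-fold.

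Luminal-like cells with a UMI of hMETtg were compared with those without in each library. In DoubleTg, 4172 cells were positive and 828 negative, and 1 of 9 members was at least 2-fold higher in the positive cells and 0 lower, beside 1.94% and 1.5% of 8604 genes. This was Ctse, at 45.5 and 7.33 CPM, a log2 ratio of 2.63 (2.42 to 2.85). Ctsh followed at 0.95, Ctsd at 0.76 and Ctsz at 0.70. In TripleTg, with 1505 positive and 2939 negative cells, 0 of 9 were 2-fold apart, beside 0.0951% and 0.119% of 8414 genes, and Ctse was at 181 and 130 CPM, a ratio of 0.47 (0.43 to 0.51).

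Depth and cluster moved with this split. The level of hMETtg in luminal-like cells, given above, was also far lower in TripleTg. A missing UMI therefore says less about a TripleTg cell, and the ratios of the 2 libraries cannot be set side by side as like measures. Positive cells were deeper, at medians of 37151 against 24797 UMIs in DoubleTg and 33822 against 22940 UMIs in TripleTg. With cells thinned to 5000 UMIs the DoubleTg Ctse ratio was 1.99. The Prr9-led and Psca and Msln-led clusters, which led in Ctse, also had the highest hMETtg levels among DoubleTg luminal-like clusters, 838 and 733 CPM. Within clusters Ctse was higher in positive cells in 5 of the 7 DoubleTg clusters that could be compared, with a mean log2 ratio weighted by positive cells of 0.83 and a range of -0.86 to 2.17. Ctsd and Ctsh were higher in 8 of 8 clusters, by weighted means of 0.31 and 0.32. Ctsa was higher in 7 of 8, Ctsz in 5, Ctsb and Ctsc in 4, Ctss in 3 and Ctsl in 2. In TripleTg Ctse was higher in 6 of 7 clusters, by a weighted mean of 0.27, and Ctsd and Ctsh in 5 and 4 of 7, both by 0.04. Ctsb was higher in 7 of 7, Ctsz in 6, Ctsc and Ctsl in 4, Ctsa in 3, Ctss in 1, and Ctsk in 3 of 6. Such counts were not made over all genes. Over the pooled cells the median log2 ratio of all genes was 0.12 in DoubleTg and -0.01 in TripleTg.

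Across the 48 clusters of at least 50 cells of both libraries, the cathepsins were compared by Pearson correlation of log2(CPM + 1), without a set cut. These values describe clusters that share libraries and are no test. Ctsa, Ctsb and Ctsz correlated at 0.79 to 0.87 with each other, and Ctss with Ctsz at 0.80. Ctse and Ctsh correlated at 0.72, and Ctsl with Ctse at -0.56.

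**Figure D5:**
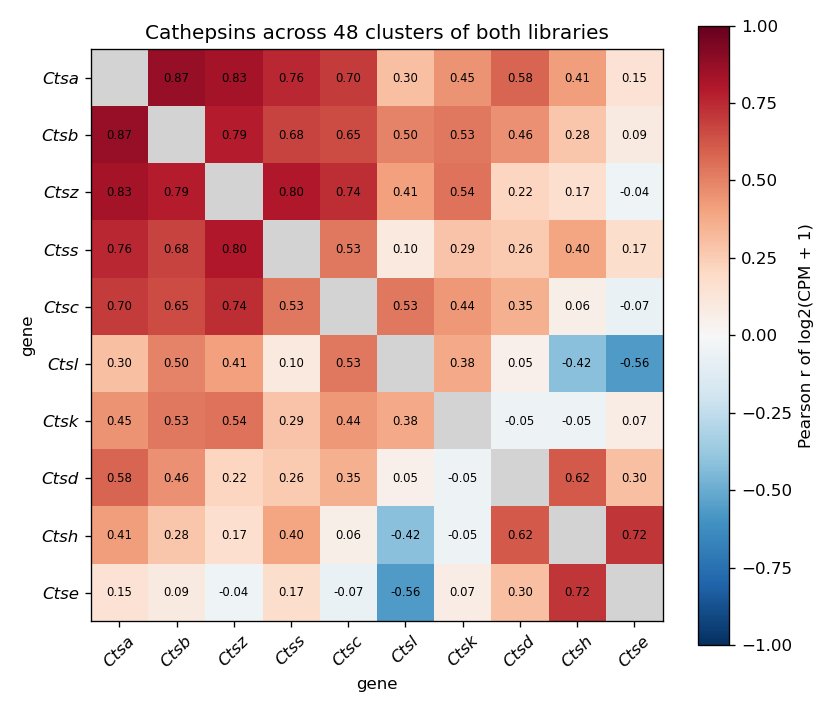
Pearson correlation of log2(CPM + 1) between each pair of cathepsins (both axes list the genes) over 48 clusters, red for positive and blue for negative values. Ctsa, Ctsb, Ctsz, Ctss and Ctsc correlate at 0.53 to 0.87 with each other. No cut was set, and other pairs reach similar values, such as Ctsd with Ctsh at 0.62 and Ctsk with Ctsz at 0.54. Ctse pairs with Ctsh at 0.72 and opposes Ctsl at -0.56.

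Among the 10275 genes that reached 20 CPM in a cluster, the 3 nearest to each member were as follows. Ctss lay nearest to Spi1 (0.95), which encodes PU.1, Wfdc17 (0.95) and Lilrb4a (0.95). Ctsk lay nearest to Hsd11b1 (0.93), Col1a2 (0.92), a collagen gene, and Rarres2 (0.92). Ctsz lay nearest to Ifi30 (0.90), a lysosomal thiol reductase, Lgmn (0.89) and Emilin2 (0.87).

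Ctsa and Ctsb lay nearest to each other (0.87), followed by Sod2 (0.84) and Acp2 (0.84), a lysosomal phosphatase, for Ctsa and by Itga9 (0.85) and Rab3il1 (0.84) for Ctsb. Ctsd was nearest to Atp6v1e1 (0.77), a subunit of the proton pump, Akr1a1 (0.77) and Lamp1 (0.74), a lysosomal membrane protein. For Ctse the nearest were Cd200r4 (0.83), Prr9 (0.81) and Areg (0.80), an EGF receptor ligand. For Ctsh they were Rhov (0.86), Dnase2a (0.83), a lysosomal nuclease, and Tnip3 (0.81). Ctsl was nearest to Fndc3b (0.81), Degs1 (0.81) and Aldh2 (0.79), and Ctsc to Sirt2 (0.83), Il17ra (0.80) and Mdm2 (0.79).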

How the data were processed

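The authors deposited UMI counts per gene and cell for 1 library per genotype, made with Cell Ranger 6.0.2 and mm10 plus both transgenes per the submitters' processing notes, unnormalised. The DoubleTg matrix header names Cell Ranger 6.1.1 and the TripleTg header none, so a version difference would coincide with genotype and was not tested. The TripleTg matrix held only cells within the study's limits; those limits were applied to DoubleTg, where they left more cells, with fewer genes on average, than the study states, so the DoubleTg cells are not the study's exact set. Genes were matched by name (27935 shared). With Scanpy 1.11.5, cells were clustered on 2000 variable genes without cathepsins (20 components, Leiden resolution 1) and clusters named from fixed markers, with thresholds set after the clusters were seen; shallow, mixed or cornified ones stayed unnamed. Doublets were kept in the main values: Scrublet marked 273 DoubleTg (2.58%) and 0 TripleTg cells. Leaving out its doublets therefore changed nothing in TripleTg, and why it marked none there was not tested. UMIs were summed per class. With 1 library per genotype no test was run: ratios have exact binomial, levels Poisson and shares Clopper-Pearson intervals, and "at least 2-fold" was counted among genes with at least 5 CPM, sums under 3 UMIs set to 3. Named were the members and, from 7 gene lists (other cathepsins, inhibitors, activators and partners, targets of Ctsc, sorting, lysosomal enzymes and membrane, transcription factors), genes at least 2-fold apart and at 20 CPM or more, up to 4 a list and comparison, and the 3 genes nearest each member. Members and lists were chosen with earlier results of these data known. The ratio script was tested on simulated data.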

Additional observations from a re-analysis of the deposited data

Results flagged for a closer look

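Some differences had opposite directions in 2 libraries or 2 classes. None was tested, since each rests on 1 library per genotype, and they were listed where the counting intervals of both lay on opposite sides of 0 and at least 1 was past 2-fold. The log2 ratio of TripleTg over DoubleTg for Ctsl was 2.61 in macrophage-like, -2.13 in luminal-like, -0.20 in fibroblast-like and -2.70 in basal-like cells. For Ctsc it was 0.68 in macrophage-like, 1.20 in dendritic-like and 0.79 in basal-like, and -1.27 in luminal-like and -0.60 in fibroblast-like cells. For Ctse it was 1.90 in luminal-like, 3.56 in fibroblast-like and 7.35 in basal-like, and -0.88 in macrophage-like cells. For Ctsd it was 2.12 in macrophage-like and 1.29 in dendritic-like, and -0.22 in luminal-like cells. For Ctss it was 1.79 in fibroblast-like and 3.29 in basal-like, and -0.20 in luminal-like cells. The basal-like Ctss ratio rests on low levels, with 22 UMIs (0.83 CPM) in DoubleTg. After thinning, 99.5% of DoubleTg and 96.8% of TripleTg basal-like cells held none. For Ctsz it was 0.071 in macrophage-like and 0.35 in fibroblast-like, and -1.07 in basal-like cells. The macrophage-like Ctsz ratio changed sign in 3 of 9 other settings, to -0.15 with edgeR's TMM factors. That of Ctsl in fibroblast-like cells changed sign in 2 of 9, and that of Ctsk in dendritic-like cells in 4 of 9. For Ctsk, with sums under 3 UMIs set to 3, the ratio of TripleTg over DoubleTg was -0.58 in dendritic-like and 5.04 in macrophage-like cells. The ratio of dendritic-like over macrophage-like cells for Ctsk, with sums under 3 UMIs set to 3, was 3.14 in DoubleTg and -2.48 in TripleTg, where the dendritic-like class held 0 Ctsk UMIs, and 1 DoubleTg dendritic-like cell held 13 of the 14 UMIs.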

How the results depend on the processing

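Counts of members at least 2-fold apart moved by more than 1.5 times in these settings. At 1.5-fold in place of 2-fold, 4 members in place of 1 were apart between hMETtg-positive and hMETtg-negative DoubleTg luminal-like cells, and, for TripleTg over DoubleTg, 6 in place of 3 in macrophage-like, 5 in place of 3 in dendritic-like, 5 in place of 3 in fibroblast-like and 9 in place of 5 in basal-like cells. With edgeR's TMM factors the hMETtg count was 2 and the dendritic-like count 1, and the cause was not tested. Shares of all genes were computed at 2-fold in the main setting only, so these counts cannot be read against a background. Of 143 member ratios, 130 kept their sign in every setting run for them and 13 did not in at least 1. The 143 include the spans over luminal-like clusters of 9 members per library. Spans were run in 3 other settings in place of 9, and their sign cannot change. Of 84 ratios past 2-fold, spans among them, 76 stayed so. The 8 that did not were Ctsk in dendritic-like over macrophage-like cells (0.94 in DoubleTg without Scrublet doublets, -0.37 in TripleTg after thinning), Ctsc in DoubleTg fibroblast-like over luminal-like cells (0.73 with TMM), Ctsc, Ctsd and Ctse in dendritic-like cells of TripleTg over DoubleTg (0.93 after thinning, 0.85 without limits on cells and 0.43 after thinning), Ctsz in basal-like cells (-0.87 as a mean over cells) and the DoubleTg luminal-like span of Ctsl (0.99 as a mean over cells). The setting that left out the highest 8% of doublet scores, the basal-like comparison and the sub-cluster and top-cell values were chosen after seeing the data. No paired analysis was possible because each genotype had 1 library. In 47 TripleTg dendritic-like cells depth limits members under about 5.47 CPM, the level of 3 UMIs.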
